A study of Mus musculus with 6 samples.

Results

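The 10 genes described here encode the core of the G1 switch of the cell cycle: the D-type cyclins Ccnd1, Ccnd2 and Ccnd3, the E-type cyclins Ccne1 and Ccne2, the kinases Cdk4 and Cdk6 that D-type cyclins bind, and the CIP/KIP inhibitors Cdkn1a (p21), Cdkn1b (p27) and Cdkn1c (p57). They were chosen by symbol from the 33084 genes of a count table, and all 10 were found and passed the filter on low counts. Bulk forebrain RNA of mouse embryos, taken at E15.5, was sequenced from 3 wt (wild-type) samples and 3 samples heterozygous for a Dyrk1a mutation (Dyrk1a+/-). All samples came from the Dyrk1a+/- line. The labels call the replicates biological, and do not say which part of Dyrk1a the mutation removes or whether a library pools embryos; without such detail, p-values measure the spread between these libraries.

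A cell in G1 commits to another division when D-type cyclins, bound to CDK4 or CDK6, and then E-type cyclins, bound to CDK2, phosphorylate the retinoblastoma proteins and free E2F transcription factors. CIP/KIP proteins inhibit cyclin E complexes and can also help cyclin D complexes assemble. In the embryonic forebrain the choice is made by progenitors that line the ventricles, and the length of their G1 is tied to whether daughters divide again or become neurons. DYRK1A is a kinase known to phosphorylate cyclin D1, which speeds its degradation, and p27, which it stabilises. Both of these are effects on protein, which RNA counts do not measure.

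Promoter sequences are shown for the members whose known regulators can be read as letters in the window. RefSeq (GRCm38.p6) windows of 300 bases, from 250 before to 50 after a start site, were matched by symbol for 6 of the 10 genes, in 8 windows. Cdk4 is shown for its E-boxes, the letters CACGTG that MYC family proteins bind. Ccne1 is shown because it was the member whose genotypes did not overlap, with GC boxes (GGGCGG on either strand), which SP family factors bind. The upstream window of Cdkn1a is shown for a match to the p53 consensus. Capitals mark E-boxes in Cdk4, GC boxes in Ccne1 and the p53 match in Cdkn1a, and other bases, with any other motif, are in lower case, 5′ to 3′ on the gene's strand.
Cdk4 promoter, chr10:127063285-127063584, plus strand: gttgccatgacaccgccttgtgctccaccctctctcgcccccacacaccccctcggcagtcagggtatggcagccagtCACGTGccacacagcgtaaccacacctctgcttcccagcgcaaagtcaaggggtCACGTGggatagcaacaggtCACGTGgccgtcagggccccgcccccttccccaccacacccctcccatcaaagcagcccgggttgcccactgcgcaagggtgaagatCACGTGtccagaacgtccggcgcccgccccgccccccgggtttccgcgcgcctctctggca
Ccne1 promoter, chr7:38107441-38107740, minus strand: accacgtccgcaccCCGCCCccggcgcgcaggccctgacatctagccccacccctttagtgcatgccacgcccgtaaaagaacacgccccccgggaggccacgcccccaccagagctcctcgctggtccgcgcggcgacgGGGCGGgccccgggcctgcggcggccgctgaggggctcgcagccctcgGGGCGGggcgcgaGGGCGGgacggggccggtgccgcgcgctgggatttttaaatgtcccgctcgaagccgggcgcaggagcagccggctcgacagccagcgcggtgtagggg
Cdkn1a upstream promoter, chr17:29090729-29091028, plus strand: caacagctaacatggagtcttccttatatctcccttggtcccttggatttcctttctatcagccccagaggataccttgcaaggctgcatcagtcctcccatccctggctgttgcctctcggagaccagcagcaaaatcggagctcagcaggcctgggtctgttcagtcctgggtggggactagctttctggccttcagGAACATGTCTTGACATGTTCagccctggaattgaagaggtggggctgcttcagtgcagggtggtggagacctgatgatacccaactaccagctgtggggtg
E-box, GC box and p53 letters were chosen after the promoters were read, so their shares below are a description only. The Cdk4 window held 4 E-boxes, a number that 0.0244% of 32851 mouse promoter windows of this length reach, and Cdk6 held 1. The Cdk4 window also held 3 GC boxes, which are not capitalised. At least 1 E-box was in 7.15% of windows. Ccne1 held 4 GC boxes, as many or more than which 4.65% of windows hold; 35.7% of windows hold at least 1, and so did 6 of the 8 member windows. The Cdkn1a match had 1 mismatch over 20 bases, which 0.0883% of windows reach. E2F letters (TTTCCCGC, TTTCGCGC, TTTGCCGC or TTTGGCGC, either strand) were in 0 of the 8 member windows and 2.26% of all windows, and CHR letters (TTTGAA or TTCGAA, either strand) in 0 and 19.2%. Matches of different motifs did not share bases in the windows shown, while 2 of the GC boxes of Cdk4 shared 1 base.

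Libraries held 25270710 to 32865708 counts in wt and 18699434 to 25012356 in heterozygotes. Every heterozygote thus had fewer counts than every wt library, and Dyrk1a+/- replicate 3 had the fewest. The part of depth in the differences below was not tested. Values are CPM, counts scaled to a common library size. The pair of wt replicate 3 and Dyrk1a+/- replicate 2 stood apart from the 4 others. These 2 libraries had 4.46% and 4% of counts in 3 structural RNAs (7SK and the RNAs of RNase P and RNase MRP). The 4 others had 2.57% to 3.01%, so each member is also compared within that pair and within the 4 others. The pair was picked from these data, so results that rest on it are a description. Dyrk1a was at 177, 186 and 160 CPM in wt and at 149, 147 and 158 CPM in heterozygotes (edgeR log2 fold change -0.20, SE 0.079; unadjusted p = 0.0306, adjusted p = 0.59), at 0.868 of the wt level. It was lower in 3 of 3 heterozygotes and did not pass the test. The forebrain marker Emx1 was at 20.2 to 34.2 CPM, and the summed level of the 3 Hox genes found among the hindbrain and spinal cord markers was 0 to 0.145 CPM, with Hoxb2 at 0.

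No member passed the test between genotypes. By edgeR's quasi-likelihood test with Benjamini-Hochberg adjustment over the 19403 genes tested, 0 of 10 members were called at an adjusted p under 0.05, where 0.0103% of all genes tested were called. At an unadjusted p under 0.05 there were also 0 of 10 (7.88% of all genes), and DESeq2 and limma-voom called 0. Log2 fold changes (heterozygote minus wt) ran from -0.13 for Cdk6 to 0.19 for Cdk4, with 7 of 10 above 0 against 51.2% of all genes, and a median of 0.09 against 0.005. The genotypes did not overlap in 1 of 10 members, Ccne1, which was higher in heterozygotes; the background is 6.53% of all genes tested for higher and 7.49% for lower. Single libraries moved the median: without Dyrk1a+/- replicate 3 it was -0.011, with 5 of 10 above 0. Without wt replicate 1 it was 0.051, also with 5 of 10 above 0. Dyrk1a+/- replicate 3 held the highest level of 6 of the 10 members.

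The forebrain used these genes at very different levels. Per kb of merged exon, Cdk4 was highest, at 110 ± 12.6 CPM per kb (SD over all 6 libraries), and Ccnd2 followed at 67.8 ± 6.08. Cdkn1c, at 37.9 ± 3.84, and Cdkn1b, at 33.1 ± 2.47 CPM per kb, overlapped in range. Ccnd1 had 14.1 ± 1.71 and Cdk6 6.34 ± 0.563 CPM per kb. Ccne2 (4.08 ± 1) overlapped Ccnd3 (3.18 ± 0.184) in range, and Ccnd3 overlapped Ccne1 (2.64 ± 0.204). Cdkn1a was lowest, at 1.12 ± 0.212 CPM per kb, and Cdk4 was 97.8 times higher. The 3 overlaps named are the neighbours in this order whose ranges over 6 libraries met; all other neighbours were apart. Merged exons count every annotated isoform (13989 bases for Cdk6, 9409 for Ccnd2, 2039 for Cdkn1c), which lowers the value of genes with long, partly used ends. Some exons also overlap genes on the opposite strand, such as 625 bases of Cdkn1c (Gm44732) and 1100 of Ccnd1 (LTO1). How that bears on this order was not tested, as the strand setting of the counting is not given.

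**Figure D1:**
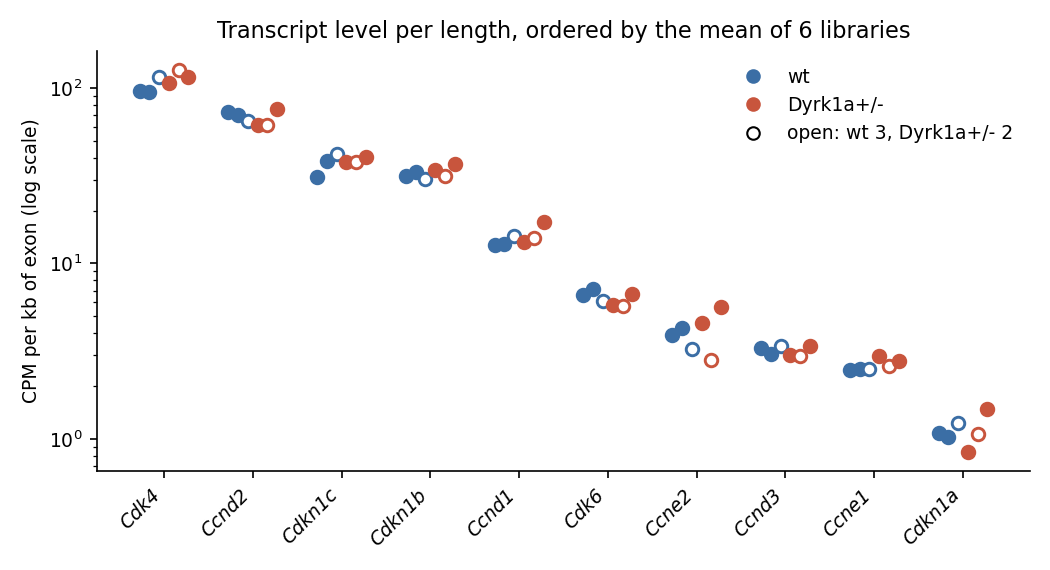
Level of each gene in CPM per kb of merged exon on a log axis, 1 point per library, ordered by the mean. Blue points are wt, red are Dyrk1a+/-, and open points are the pair of libraries rich in structural RNAs. Cdk4 and Ccnd2 lie at the top and Cdkn1a at the bottom, 1.12 CPM per kb on average.

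D-type cyclins connect growth signals to the cycle, and Ccnd2 made up most of their RNA. Ccnd2 (ENSMUSG00000000184, GRCm38 chromosome 6, 127125162 to 127152193) was at 686, 657 and 610 CPM in wt and at 577, 582 and 715 CPM in heterozygotes. The heterozygotes held both the lowest values and the highest, so the groups overlapped in full. The fold change on the log2 scale was -0.06 (SE 0.099; edgeR adjusted p = 0.936; 95% interval -0.28 to 0.17), and the interval ran from 0.821 to 1.12 of the wt level.

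Ccnd1 (ENSMUSG00000070348, chromosome 7, 144929931 to 144939925), whose protein is the DYRK1A substrate, was at 59.8, 60.7 and 67.8 CPM in wt and at 62.6, 65.8 and 81.6 CPM in heterozygotes. A single heterozygote, replicate 3, stood above every wt library. Its log2 fold change had an SE of 0.109 around 0.16 (edgeR adjusted p = 0.77; 95% interval -0.089 to 0.40), so a rise above 1.32-fold lay outside the interval, and the exact 2-sided permutation p was 0.4. Without Dyrk1a+/- replicate 3 the fold change was 0.033 (edgeR adjusted p = 0.999), and within the pair of libraries log2 CPM differed by -0.041, against 0.25 within the 4 others. On those 4 libraries alone it was 0.26, with an unadjusted p of 0.0489 and an adjusted p of 0.384 by edgeR. The exons of Ccnd1 overlap those of LTO1 on the opposite strand over 1100 bases; the kit marks strand, but the strand setting of the counting is not given in the sources used here.

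Ccnd3 (ENSMUSG00000034165, chromosome 17, 47505051 to 47599691), the D-type cyclin best known from blood cells, was at 28.9, 26.9 and 29.5 CPM in wt and 26.5, 26 and 29.6 CPM in heterozygotes. Its groups overlapped, and the log2 fold change was -0.06 (SE 0.09; edgeR adjusted p = 0.933). Bysl overlaps it over 361 exon bases on the opposite strand.

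The mix of D-type cyclins was also compared inside each library, where library scaling cancels. Of their summed counts per kb, Ccnd2 held 82%, 81.4% and 78.5% in wt and 79%, 78.5% and 78.6% in heterozygotes. The share of Ccnd1 was 14.3%, 15% and 17.4% in wt and 17.1%, 17.7% and 17.9% in heterozygotes, a difference in means of 2.02 percentage points. That share overlapped only through wt replicate 3, which lay between the heterozygotes, and 2 of 3 wt libraries lay below all heterozygotes. The exact 2-sided permutation p was 0.2 (0.64 adjusted over the 8 within-library ratios computed), where 3 against 3 libraries allow no p below 0.1. The log2 ratio of Ccnd1 to Ccnd2 went from -2.38 ± 0.184 in wt to -2.16 ± 0.039 in heterozygotes (SD, n = 3 each; exact permutation p = 0.2, adjusted 0.64). Ccnd3 held 3.49% to 4.07% in all libraries.

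E-type cyclins activate CDK2 at the start of DNA replication, and their genes are known E2F targets. Ccne1 (ENSMUSG00000002068, chromosome 7, 38097984 to 38107534) was at 6.59, 6.62 and 6.63 CPM in wt and at 7.92, 6.92 and 7.42 CPM in heterozygotes. All 3 heterozygotes lay above all wt libraries. On the log2 scale they were higher by 0.16 (SE 0.12; edgeR adjusted p = 0.787; 95% interval -0.11 to 0.44), and the exact permutation p was 0.1, the smallest possible. The gene had 139 to 216 counts per library, for which counting alone gives an error of 7.58%; the wt libraries differed by less than that, with a coefficient of variation of 0.304%. The fold change stayed between 0.12 and 0.21 with any 1 library left out.

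Ccne2 (ENSMUSG00000028212, chromosome 4, 11191351 to 11204779) was the most variable member, at 13.7, 14.9 and 11.3 CPM in wt and 15.9, 9.9 and 19.8 CPM in heterozygotes. The 2 libraries rich in the 3 structural RNAs were the 2 lowest, 1 in each genotype. They were at 9.9 and 11.3 CPM against 13.7 to 19.8 CPM in the 4 others. The part of that RNA share in the level was not tested. The fitted log2 fold change of 0.19 had an SE of 0.228 (edgeR adjusted p = 0.893; 95% interval -0.33 to 0.70). The difference was -0.192 within the pair and 0.31 within the 4 others by log2 CPM, 0.42 without Dyrk1a+/- replicate 2 (unadjusted p = 0.0269, adjusted 0.529, edgeR) and -0.05 without Dyrk1a+/- replicate 3. Ints8 overlaps Ccne2 over 609 exon bases on the opposite strand.

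**Figure D2:**
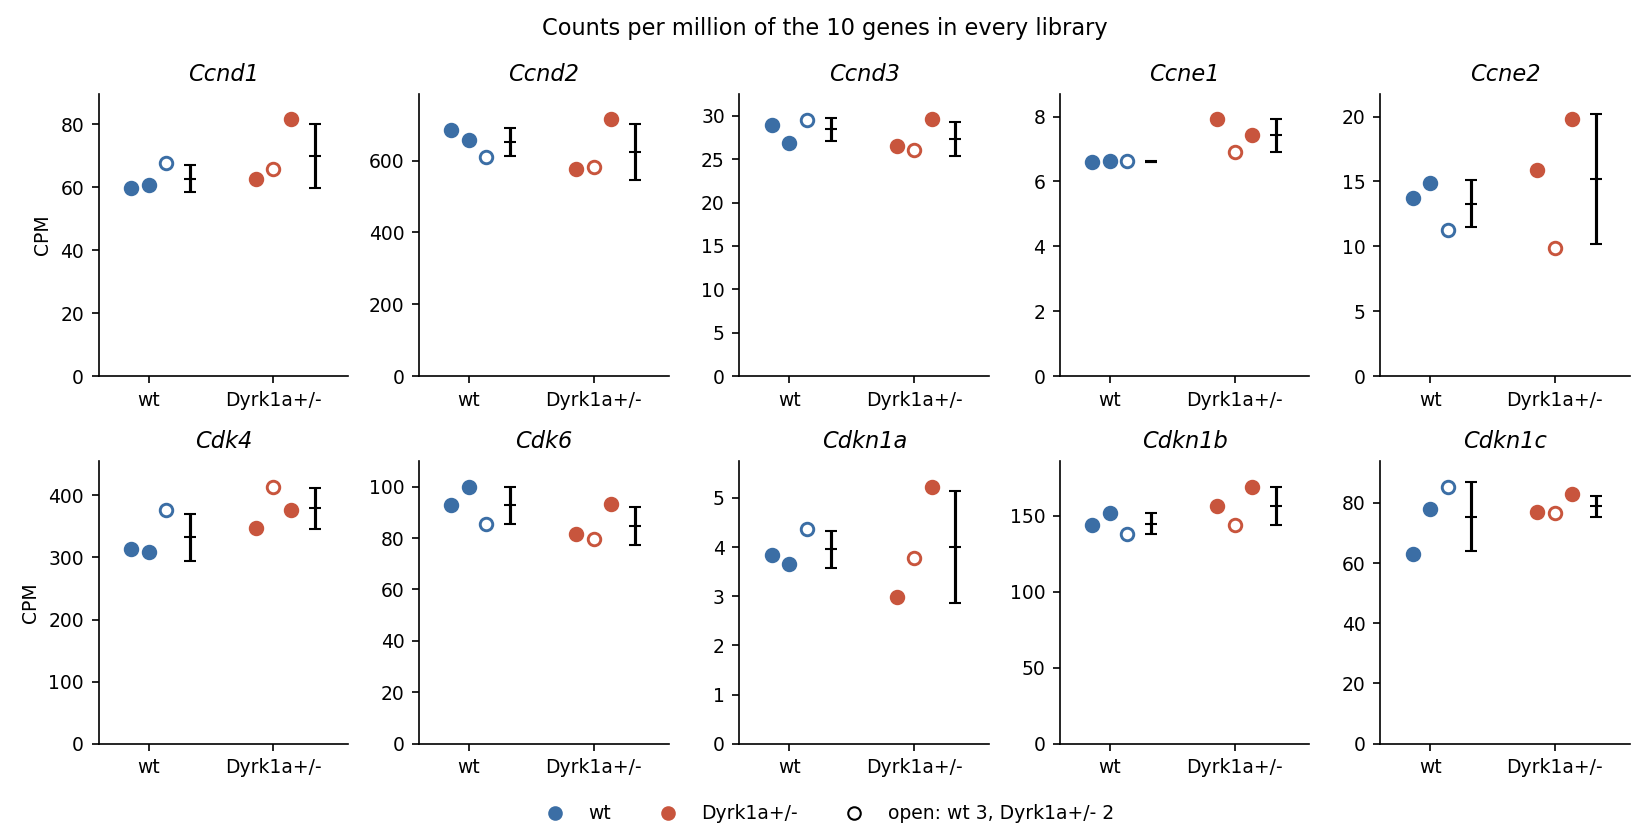
CPM of each gene, on axes that start at 0, with 1 point per library, wt in blue and Dyrk1a+/- in red. The black mark and bar beside each group are the mean and SD of 3 libraries. Open points are the pair rich in structural RNAs. Only in Ccne1 do the 3 heterozygotes, from 6.92 CPM, all lie above the wt libraries, which reach 6.63 CPM.

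Cdk4 (ENSMUSG00000006728, chromosome 10, 127063534 to 127067920), the main catalytic partner of D-type cyclins and the gene with the 4 E-boxes above, had the lowest unadjusted p of the 10. It was at 313, 308 and 376 CPM in wt and at 348, 414 and 376 CPM in heterozygotes. In both genotypes the library of the pair rich in structural RNAs was the highest, and wt replicate 3 lay among the heterozygotes. Its log2 fold change was 0.19 (SE 0.102; edgeR unadjusted p = 0.0932, adjusted p = 0.703; 95% interval -0.039 to 0.42). Heterozygotes were higher by 0.14 in log2 CPM within the pair and by 0.22 within the 4 others. With a term for the pair in the edgeR model the unadjusted p was 0.00294 and the adjusted p 0.137. On the 4 others alone they were 0.00697 and 0.255, so Cdk4 passed neither fit. The pair was picked from these same libraries, so both fits are a description. Tspan31 overlaps 641 of its exon bases on the opposite strand.

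Cdk6 (ENSMUSG00000040274, chromosome 5, 3341485 to 3531008), the second D-cyclin kinase, had the lowest fold change of the 10. It was at 92.8, 100 and 85.3 CPM in wt and at 81.4, 79.8 and 93.3 CPM in heterozygotes, with 2 heterozygotes below all wt libraries and the third among them. Fitted on the log2 scale, the change was -0.13 (SE 0.09; edgeR adjusted p = 0.777; 95% interval -0.33 to 0.077). Inside each library the log2 ratio of Cdk6 to Cdk4 per kb was -3.95 ± 0.269 in wt and -4.27 ± 0.19 in heterozygotes (SD, n = 3 each), and wt replicate 3, at -4.25, lay among the heterozygotes. Its exact permutation p was 0.3 (0.64 adjusted over 8 ratios).

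Of the CIP/KIP inhibitors, Cdkn1b and Cdkn1c were abundant and Cdkn1a scarce. Cdkn1b (ENSMUSG00000003031, chromosome 6, 134920401 to 134925513), which encodes p27, the other DYRK1A substrate, was at 144, 152 and 138 CPM in wt and 156, 144 and 169 CPM in heterozygotes. Heterozygote replicates 1 and 3 lay above all wt libraries, and replicate 2 lay among them. Its log2 fold change was 0.11 (SE 0.082; edgeR adjusted p = 0.783; 95% interval -0.072 to 0.30), and the difference was 0.066 within the pair and 0.14 within the 4 others. This was the narrowest interval of the 10, from 0.951 to 1.23 of the wt level.

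Cdkn1c (ENSMUSG00000037664, chromosome 7, 143458339 to 143461050), an imprinted gene whose product p57 marks cells leaving the cycle, was at 62.9, 78.1 and 85.4 CPM in wt and at 77, 76.8 and 83 CPM in heterozygotes. The heterozygotes lay inside the wt range, which was set by wt replicate 1 at its lower end. The log2 fold change was 0.07 (SE 0.11; edgeR adjusted p = 0.937), and -0.051 without wt replicate 1.

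Cdkn1a (ENSMUSG00000023067, chromosome 17, 29090976 to 29100727), whose product p21 is induced by p53, was at 3.84, 3.65 and 4.37 CPM in wt and at 2.99, 3.78 and 5.23 CPM in heterozygotes. The heterozygotes held the lowest and the highest library. Its interval ran from 0.723 to 1.41 of the wt level (log2 fold change 0.012, SE 0.211; edgeR adjusted p = 0.995). It had 62 to 126 counts per library, for which counting alone gives an error of 10.1%, and the heterozygotes had a coefficient of variation of 28.3%. Of 10 other p53 targets 6 were higher (median 0.083) and 4 were not, where 51.2% of all genes tested were higher. Sesn2 and Trp53inp1 had the lowest p, with log2 fold changes of 0.86 and 0.53. Of the 10, 0 passed edgeR's adjusted test. These 2 were higher at an unadjusted p under 0.05, as were 3.27% of all genes tested.

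The balance of inhibitors to D-type cyclins did not separate the genotypes. The log2 ratio of summed CIP/KIP to summed D-type cyclin counts per kb was -0.49, -0.24 and -0.17 in wt and -0.09, -0.16 and -0.29 in heterozygotes. The means were -0.30 ± 0.166 and -0.18 ± 0.1 (SD, n = 3 each; exact permutation p = 0.4, adjusted 0.64). Cdkn1b held 41.2% to 49.7% of CIP/KIP counts per kb in wt and 45% to 47% in heterozygotes. Ccne2 to Ccne1 had a log2 ratio of 0.61 ± 0.204 in wt and 0.59 ± 0.451 in heterozygotes (SD, n = 3 each). None of the 8 ratios separated the genotypes.

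**Figure D3:**
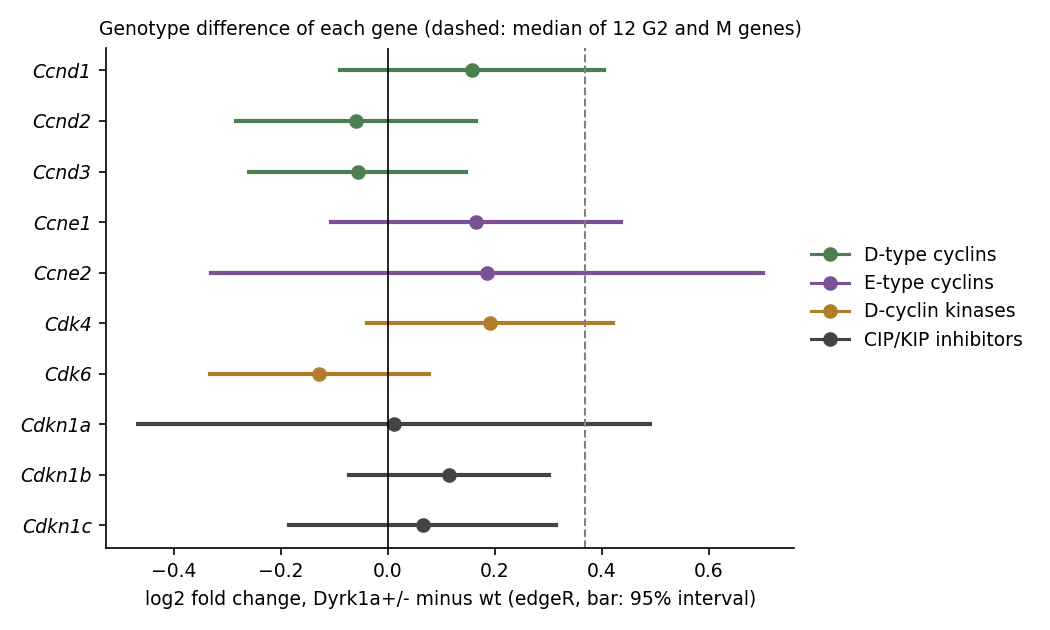
Log2 fold change (heterozygote minus wt) of each gene with its 95% interval from edgeR, coloured by role; the dashed line is the median of 12 genes of G2 and M phase, 0.37. All 10 intervals cross 0, from Cdkn1b with the narrowest to Ccne2 with the widest.

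The members were set beside genes of later phases of the cycle. Of 12 genes of G2 and M phase all 12 were higher in heterozygotes, and so were all 12 S phase genes (median log2 fold changes 0.37 and 0.29). Of all genes tested 51.2% were higher. In either list 0 passed edgeR's adjusted test. At an unadjusted p under 0.05 by edgeR 12 and 10 were higher, against 3.27% of all genes tested. Mki67 and Top2a had fold changes of 0.51 and 0.35, and the replication helicase subunits Mcm2 and Mcm3 had 0.22 and 0.34. These lists were chosen with their direction known. Relative to the averaged log2 level of the G2 and M genes in the same library, all 10 members had a lower mean in heterozygotes, as had 95.4% of all genes tested. Groups did not overlap in 5 of 10, against 49.5% of all genes, so the members stood near the background in both counts. The 5 were Ccnd1 (-0.21), Ccnd2 (-0.42), Ccnd3 (-0.41), Cdk6 (-0.49) and Cdkn1c (-0.28), each with an exact permutation p of 0.1 and 0.2 adjusted over the 10 members. Cdk4 (-0.16) and Ccne1 (-0.20) had the smallest differences (exact permutation p = 0.2 and 0.3).

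**Figure D4:**
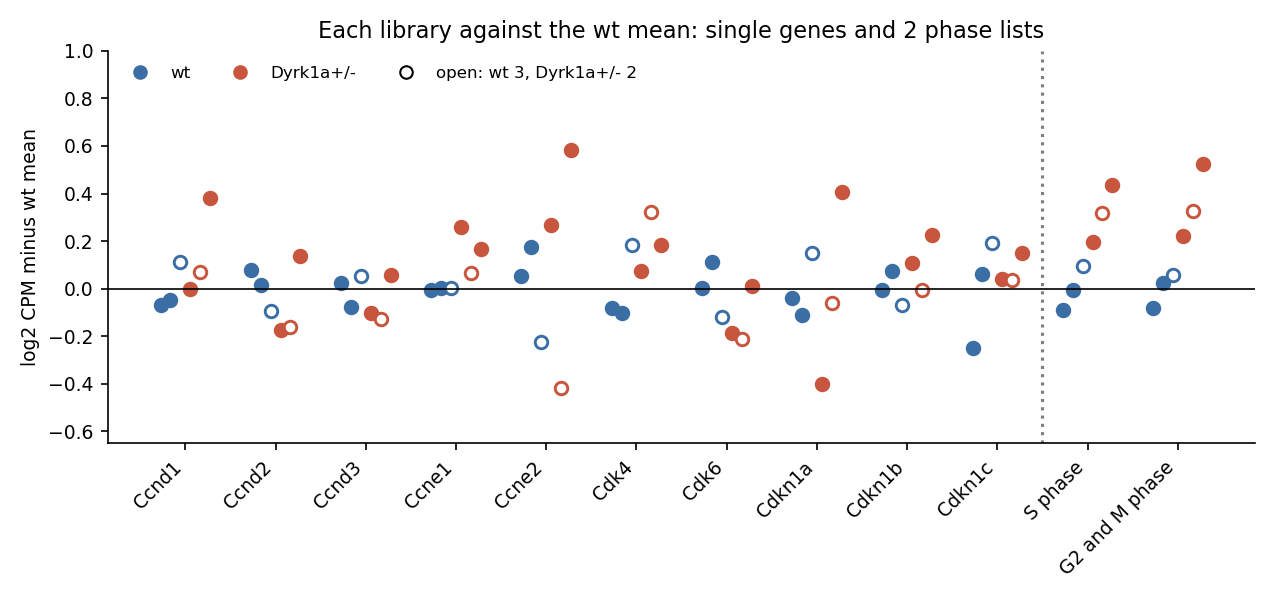
Log2 CPM of each library minus the wt mean, for the 10 genes and for the mean of the S phase list and of the G2 and M phase list (right of the dotted line). Libraries of wt are blue, of Dyrk1a+/- red, and open points are the pair rich in structural RNAs. The phase lists show the heterozygotes above wt, while the points of both genotypes mix for 9 of the 10 genes.

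Other genes of the G1 pathway, in lists chosen with earlier results of these data known, leaned higher without passing the test. Over 4 lists of 31 genes, 29 were tested. Of these 24 were higher and 5 lower (median log2 fold change 0.075), where 51.2% of all genes tested were higher. By edgeR's adjusted test 0 were called. At an unadjusted p under 0.05 by edgeR there were 7 higher and 0 lower, against 3.27% and 4.61% of all genes. Genotypes did not overlap in 5, all higher, where the background is 6.53% of all genes tested for higher and 7.49% for lower. The INK4 inhibitors act on CDK4 and CDK6 alone: Cdkn2c was at 11.6, 13.1 and 16.1 CPM in wt and 16.1, 17.3 and 18.6 CPM in heterozygotes (log2 fold change 0.35) and Cdkn2d had 0.14. Cdkn2a and Cdkn2b, with 3 and 19 counts over all libraries, were too low to test. Of 5 genes in the list of Cdk2 and kinase activators 3 were higher, with 0.24 for the phosphatase gene Cdc25a and 0.22 for Cdk2, the kinase of cyclin E.

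Of 8 pocket proteins and E2F factors, also chosen with earlier results known, all 8 were higher, against 51.2% of all genes tested. Their median was 0.17, and 3 were higher at an unadjusted p under 0.05 by edgeR (3.27% of all genes). E2f2 and E2f1, the activator E2Fs of lowest p, had 0.35 and 0.29. Of 14 genes for turnover of G1 cyclins and CIP/KIP proteins 11 were higher, with a median of 0.035. Skp2, the ubiquitin ligase subunit that targets p27, was at 50.3, 46.6 and 48.4 CPM in wt and 53.3, 54.3 and 58.3 CPM in heterozygotes (0.19, unadjusted p = 0.0306, adjusted p = 0.59, edgeR). Dtl, the adaptor that targets p21, had 0.32 (unadjusted p = 0.0431, adjusted p = 0.62, edgeR).

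**Figure D5:**
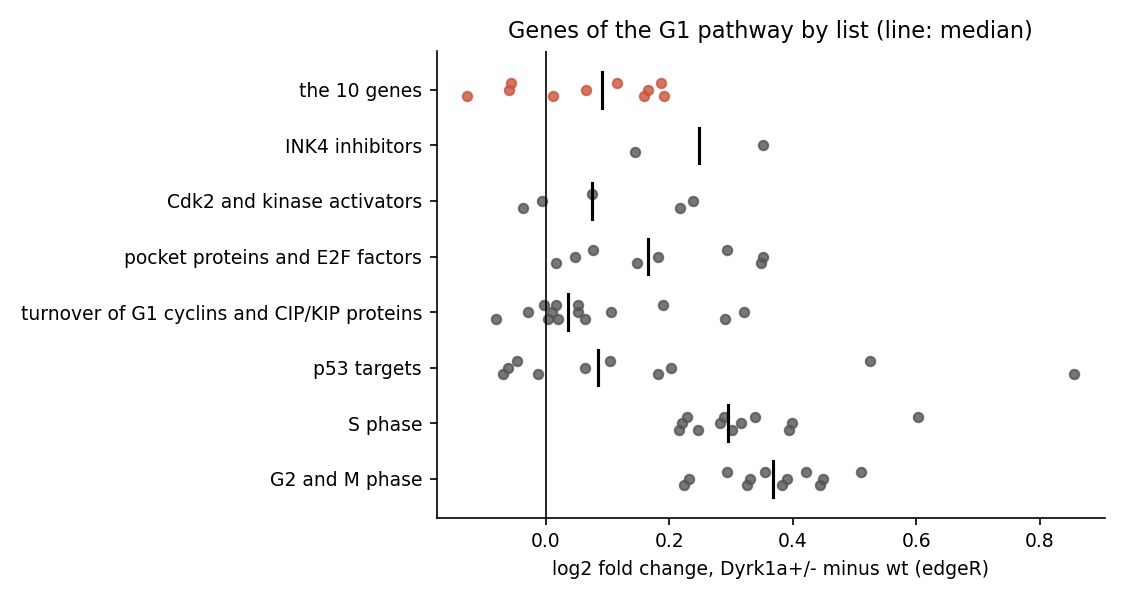
Log2 fold change (heterozygote minus wt) of single genes, 1 point each, for the 10 genes, 4 lists of the G1 pathway, p53 targets and 2 phase lists; the vertical line is the list's median. The median is 0.09 for the 10 genes, 0.17 for pocket proteins and E2F factors and 0.37 for G2 and M phase.

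In bulk tissue fewer cells of a type and less RNA per cell cannot be told apart. Summed levels of the intermediate progenitor, neuronal, erythroid, meningeal and mural marker lists did not overlap between the groups. Those of the apical progenitor, endothelial, choroid plexus and microglial lists overlapped. Mean log2 CPM sorted 3 lists the other way. By that measure the apical progenitor list did not overlap (6.269 to 6.376 in wt, 6.436 to 6.533 in heterozygotes). The mural (4.886 to 5.074 and 4.648 to 4.965) and meningeal lists (4.175 to 4.348 and 3.947 to 4.248) did. Of 6 intermediate progenitor markers 6 were higher (median 0.36; Eomes 0.26 and Neurog2 0.36; summed level 204 to 235 CPM in wt and 258 to 311 in heterozygotes), and of 8 apical progenitor markers 6 (0.22; Sox2 0.25, Pax6 0.29; 1009 to 1136 and 1057 to 1172 CPM). Of 8 neuronal markers 7 were lower (-0.18; Tubb3 -0.15, Dcx -0.092; 5823 to 6322 and 5515 to 5680 CPM). Erythroid markers were lower in 5 of 5 (-0.53; Hbb-bs -0.35, Hbb-bt -0.55; 728 to 930 and 490 to 711 CPM), and meningeal markers in 4 of 6 (-0.11; Col1a1 0.008, Col1a2 -0.32; 220 to 245 and 178 to 208 CPM). Mural cell markers were lower in 4 of 4 (-0.17; Rgs5 -0.19, Pdgfrb -0.18; 158 to 166 and 128 to 156 CPM), endothelial markers in 5 of 6 (-0.039; Cldn5 -0.08, Pecam1 0.049; 208 to 235 and 197 to 227 CPM). Choroid plexus markers were lower in 4 of 5 (-0.066; Ttr -0.04, Folr1 -0.066; 364 to 440 and 283 to 433 CPM) and microglial markers in 4 of 5 (-0.062; Aif1 -0.059, Csf1r -0.20; 40.7 to 45 and 36.2 to 44.8 CPM). Over all genes tested 51.2% were higher. At an unadjusted p under 0.05 by edgeR, 4 intermediate and 3 apical progenitor markers were higher, against 3.27% of all genes tested. At that threshold 3 neuronal, 3 erythroid and 2 meningeal markers were lower, against 4.61%. The mural, endothelial, choroid plexus and microglial lists had 0 in either direction. Of all these markers 0 passed edgeR's adjusted test, no list had a gene found at 0 throughout, and their part in the members' levels was not tested. Dyrk1a+/- replicate 3, the library with the most members at their highest, also had the highest mean log2 CPM of the intermediate progenitor and the G2 and M phase lists (5.05 and 6.16) and the lowest of the choroid plexus and erythroid lists (3.63 and 5.75).

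Over the 6 libraries, the genes whose log2 CPM followed Ccnd1 most closely among 10933 genes of at least 10 CPM were Sec22b, Gli2 and Megf10 (Pearson r = 0.98 each). For Cdkn1b they were Tcf12 (r = 0.998), Qtrt2 (0.99) and Polk (0.99). With so many genes over 6 points, which share library and depth, such values are a description only.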

How the data were processed

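Raw counts per Ensembl gene were deposited by the authors for 6 forebrain libraries, 1 column per library, matched to samples by genotype and replicate number. Per the submitters' processing notes, reads were handled with bcl2fastq 2.17.1.14, HISAT2 and SAMtools 1.9 on GRCm38 (mm10) and counted with HTSeq 0.9.1. Annotation release and strand setting of the counting: not given in the sources used here. The labels name both polyA RNA and a kit for total RNA with ribosomal depletion.

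GENCODE M21 (GRCm38) gave symbols for 32888 of 33084 identifiers, gene positions and merged exon lengths. In R 4.3.3, edgeR 4.0.16 was run with filterByExpr (19403 genes kept), TMM scaling (factors 0.9944 to 1.0034) and a quasi-likelihood fit with genotype as its term; limma 3.58.1 and DESeq2 1.42.0 gave alternatives. The fit was tested on simulated data. The common biological coefficient of variation was 0.131. Standard errors and 95% intervals come from the F statistic. Single values and ratios were compared by exact 2-sided permutation over libraries (smallest p 0.1). Log2 CPM used a prior count of 2. Counting errors, given in percent, cover counting only and not the spread between libraries, and reads are not independent molecules. No library was a copy of another (chi-square per degree of freedom 4.55 to 29.7 between pairs). Named genes were all members, Dyrk1a, the 2 genes of lowest unadjusted p in each pathway list and the p53 targets, the first 2 of the other lists, and the 3 closest in pattern to Ccnd1 and Cdkn1b; Hoxb2, Cdkn2a, Cdkn2b and the genes that overlap members were named after values were seen, and 1 gene that the rule names is not reported here. Members and lists were chosen with earlier results of these data known. E-box, GC box and p53 letters were chosen after the promoters were read.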

Additional observations from a re-analysis of the deposited data

How the results depend on the processing

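Members called by edgeR stayed at 0 of 10 under all 13 alternatives: other size factors, no low-count filter, DESeq2, limma-voom, a replicate block, a term for the pair of libraries, the 4 other libraries alone and leaving out each library. Of 130 member fold changes under these, 9 changed sign. Cdkn1a was at -0.00016 with no filter, -0.011 with the replicate block, -0.027 by limma-voom, and ran from -0.219 (without Dyrk1a+/- replicate 3) to 0.180 with 1 library left out. With 1 left out Cdkn1c ran from -0.051 to 0.164 and Ccne2 from -0.05 to 0.423, and Ccnd3 at 0.008 on the 4 other libraries. The members' median ran from -0.011 to 0.163 over the 13. The difference in the Ccnd3 share of D-type cyclins (-0.0696 percentage points) turned to 0.0502 on the 4 other libraries and ran from -0.176 to 0.0764 with 1 library left out, and Ccne2 relative to G2 and M genes ran from -0.354 to 0.048. The cause of these changes was not tested. Over all genes, 2 were called by edgeR, against 4 with no filter, 6 with the term for the pair, 6 on the 4 other libraries, 27 by DESeq2, and 0 to 5 with 1 library left out. With replicate number as a block 0 were called. Deviations of same-numbered libraries from their group means had r = 0.201, -0.325 and -0.165. With 3 libraries per group, these values cannot tell whether the numbers pair the libraries. Depth gave a counting error of 10.1% for Cdkn1a and 7.58% for Ccne1, the 2 with the fewest counts, and of 0.791% to 5.36% for the 8 others.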
